A study of Arabidopsis thaliana with 4 samples.

Results

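Active DNA demethylation and its histone counterpart were followed through 5 genes, ROS1 (also DML1, AT2G36490), DME (AT5G04560), DML2 (AT3G10010), DML3 (AT4G34060) and IBM1 (AT3G07610). They were taken by locus from tables of 27416 genes, and all 5 were present. RNA-seq compared whole seeds of Arabidopsis thaliana, with embryos at the post-mature green stage near the end of seed filling, between the ddcc mutant and wild type (WT), both in the Col 0 background and greenhouse grown. The letters of ddcc stand for DRM1, DRM2, CMT2 and CMT3, which encode DNA methyltransferases acting mostly outside CG sites, and the labels give no alleles for them. Each genotype had 2 libraries, labelled as biological replicates, and neither the number of plants nor that of seeds behind a library is stated. Methylation itself was not among the data analysed here.

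ROS1, DME, DML2 and DML3 encode DNA glycosylases that cut 5-methylcytosine out of DNA, after which base excision repair fills in an unmethylated cytosine. ROS1 is the main such enzyme of vegetative Arabidopsis tissue, where its transcript is known to be low in mutants of RNA-directed DNA methylation. DME is best known for its activity in the central cell, which gives rise to the endosperm and to imprinted expression there. IBM1 encodes a JmjC histone demethylase that removes methylation of lysine 9 of histone H3 from genes and so keeps CMT3 from methylating gene bodies; correct processing of its long transcript is known to depend on factors that bind methylated sequence in a large intron.

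In ddcc seeds ROS1 was almost lost, IBM1 was lower and DME was higher, while DML2 did not pass the test and DML3 was close to undetected in either genotype. Of the 5 genes 4 passed the filter on low values, and 3 of these 4 were called at an adjusted p under 0.05, 2 of them lower (ROS1 and IBM1) and 1 higher (DME). Over all 15780 genes tested, 6.48% were called, 3.45% lower and 3.03% higher. The libraries of ddcc and WT did not overlap for any of the 4 tested genes, which was also so for 51.0% of all genes tested. The genes were chosen with earlier results of these data known, so these counts are a description.

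The libraries differed in depth. Inferred reads on protein-coding genes were 1122934 and 1166635 in ddcc replicates 1 and 2, against 3416071 and 1292023 in WT replicates 1 and 2. Of the genes that name the mutant, DRM2 had 11 reads in ddcc and 104 in WT and was lower in ddcc (log2 fold change -2.36, SE 0.39, limma adjusted p = 0.00347). Both ddcc libraries lay below both WT libraries. Without any 1 of the 4 libraries the call was lost, at log2 fold changes of -2.67 to -2.04. Such fits leave 1 library in a genotype, and most calls over all genes were lost in them too. Here and below, a call lost in such a fit is thus not particular to the gene. DRM1 had no read in any library, CMT2 had 2 reads in ddcc and 1 in WT, and CMT3 had 2 in ddcc and 8 in WT, so these 3 check nothing at this depth. One label of WT replicate 2, the source name, reads ddcc, whereas the title, the description and the genotype read wild type. Its value was on the side of WT replicate 1 for DRM2 as for ROS1, DME and IBM1. All of these were called with this library counted as WT, so they are no check of its label. Over all genes tested it correlated with WT replicate 1 at 0.947 (log2 values), beside 0.907 to 0.918 for pairs of libraries of different genotype. The deposited values fitted an equalisation of library sizes within each genotype, with this library taken as WT. The correlation is thus not independent of its label either. Results without WT replicate 2 are given beside the called genes.

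The bases before the 3 called genes are shown because they are where methylation of a gene's start would lie, and they differ in how many CG sites they hold. The lines give 250 bases upstream of the annotated start in the direction of transcription, from the RefSeq TAIR10.1 genome, with CG dinucleotides in capitals. The windows are chr2:15314808-15315057 on the minus strand for ROS1, chr5:1308849-1309098 on the plus strand for DME and chr3:2425634-2425883 on the plus strand for IBM1, and none overlaps another annotated gene.
ROS1: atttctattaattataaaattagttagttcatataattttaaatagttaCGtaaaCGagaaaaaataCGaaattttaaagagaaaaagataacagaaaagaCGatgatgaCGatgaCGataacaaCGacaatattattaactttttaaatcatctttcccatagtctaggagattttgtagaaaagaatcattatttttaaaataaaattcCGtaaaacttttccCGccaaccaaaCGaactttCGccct
DME: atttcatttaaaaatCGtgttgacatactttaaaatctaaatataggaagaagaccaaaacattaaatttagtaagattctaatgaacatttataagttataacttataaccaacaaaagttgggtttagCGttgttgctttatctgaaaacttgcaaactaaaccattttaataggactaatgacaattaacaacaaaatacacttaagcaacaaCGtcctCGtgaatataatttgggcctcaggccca
IBM1: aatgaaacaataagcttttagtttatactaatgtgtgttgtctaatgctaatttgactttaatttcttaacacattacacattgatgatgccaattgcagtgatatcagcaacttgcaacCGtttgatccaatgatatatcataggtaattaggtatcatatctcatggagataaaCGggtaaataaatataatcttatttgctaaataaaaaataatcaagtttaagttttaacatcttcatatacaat
The letters CG, which read the same on both strands, occurred 11 times before ROS1, 4 times before DME and 2 times before IBM1. Among the windows of 26714 loci the median was 5, and 9.12% held at least 11, 64.5% at least 4 and 88.1% at least 2. The letters CAG or CTG, which are reverse complements of each other and hold a cytosine outside CG, occurred 1 time before ROS1 and 2 times before each of DME and IBM1. The median was 3, with 94.2% of loci holding at least 1 and 79.8% at least 2. CAG and CTG are only some of the sites outside CG, as CCG, CGG and cytosines with no G in the next 2 bases are left out. These counts therefore do not say how rich a window is in sites outside CG. The CG counts concern sites where the DNA methyltransferases that name ddcc mostly do not act. All of these counts describe the letters only, and no methylation value belongs to them.

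ROS1 lies on chromosome 2 at 15307907 to 15314807 on the minus strand, with 21 exons in its 1 annotated transcript. Its normalised read count was 6.06 and 10.7 in ddcc replicates 1 and 2, against 174 and 162 in WT replicates 1 and 2. Both ddcc libraries lay far below both WT libraries. The means were 8.39 ± 3.29 in ddcc and 168 ± 8.09 in WT (SD, n = 2 each). The log2 fold change was -4.13 (SE 0.32, 95% interval -4.81 to -3.46, limma adjusted p = 6.54e-06), the third place by size among the 545 genes called lower. In reads this was 14 in ddcc against 450 in WT, a depth-corrected ratio of WT over ddcc of 20.4 with a counting interval of 12.02 to 37.6. In bulk seeds, fewer cells with the transcript and less RNA per cell cannot be told apart. Without ddcc replicate 2 the log2 fold change was -4.47 and the call was lost. Without ddcc replicate 1, WT replicate 1 or WT replicate 2 it was -3.78, -4.095 or -4.19, and the call held.

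DME moved the other way. It lies on chromosome 5 at 1309099 to 1318520 on the plus strand, with 3 annotated transcripts. Its normalised read count was 53.0 and 48.5 in the ddcc libraries, against 15.2 and 17.1 in the WT libraries. The genotypes did not overlap, and the gap between them was several times the spread within either. DME averaged 50.8 ± 3.23 in ddcc and 16.2 ± 1.30 in WT (SD, n = 2 each), 3.14-fold higher in ddcc. The log2 fold change was 1.56 (SE 0.32, 95% interval 0.89 to 2.24, limma adjusted p = 0.0101), which ranked 255 of the 478 genes called higher, so its size was middling among them. The reads were 85 in ddcc and 42 in WT, a depth-corrected ratio of 3.19 with a counting interval of 2.18 to 4.74. Without ddcc replicate 1, ddcc replicate 2, WT replicate 1 or WT replicate 2 the log2 fold change was 1.496, 1.62, 1.49 or 1.64. The call was lost in each of these fits, which leave 1 library in a genotype, as were most calls over all genes.

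DML2, a ROS1 relative known to act redundantly with ROS1 and DML3 in vegetative tissue, spans 3081735 to 3088550 on the minus strand of chromosome 3. Its normalised read count was 19.0 and 25.2 in the ddcc libraries, against 17.5 and 10.9 in the WT libraries. The ddcc libraries were both above the WT libraries, by a gap narrower than the spread within a genotype. The log2 fold change of 0.61 (SE 0.39, 95% interval -0.23 to 1.44) did not pass the test (limma adjusted p = 0.409), and the interval spans 0. Without WT replicate 2 the log2 fold change was 0.31 (limma adjusted p = 0.724). Reads were few, 37 in ddcc and 40 in WT.

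DML3 spans 16313366 to 16319426 on the plus strand of chromosome 4. It had no read in either ddcc library, against 3 reads in WT replicate 1 and none in WT replicate 2, and its deposited values were 0 and 0 in ddcc and 1.71 and 0.0705 in WT. It was therefore below the level tested. A count of 3 reads over a genotype corresponds to a mean value of 1.79 in ddcc and 1.14 in WT, so a difference in DML3 was not detectable at this depth.

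**Figure D1:**
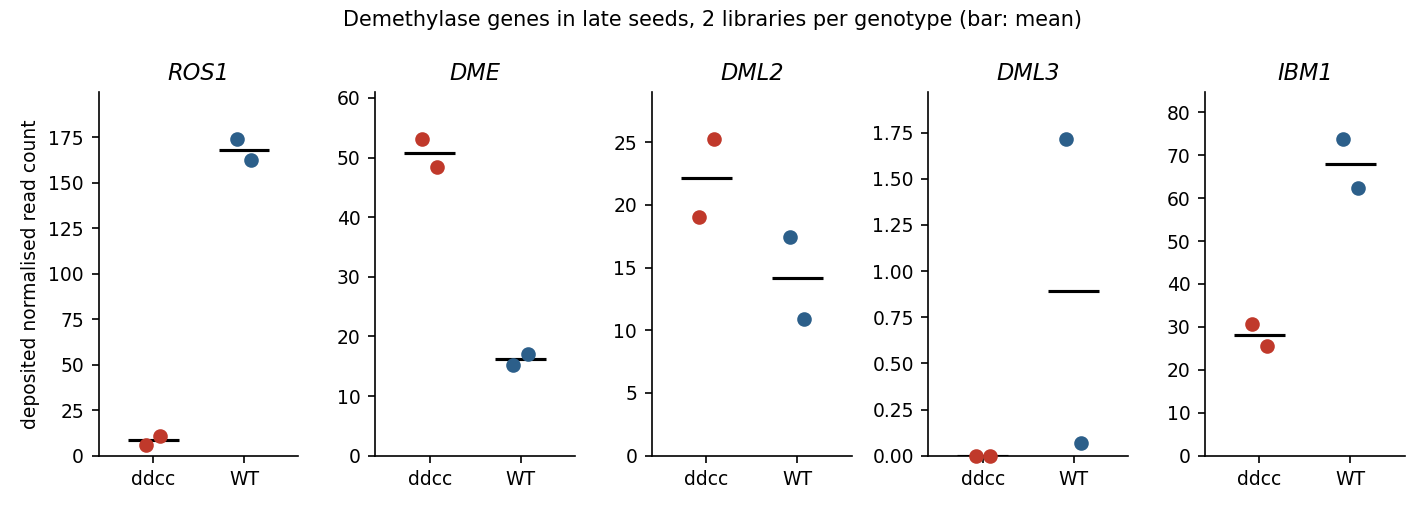
Deposited normalised read counts (vertical axes, each from 0 with its own scale) of the 5 genes in the 2 ddcc libraries (red, left) and the 2 WT libraries (blue, right), with a bar at each mean. ROS1 and IBM1 are lower in both ddcc libraries, DME is higher, the DML2 groups lie close to each other, and DML3 is at 0 in ddcc and at most 1.71 in WT.

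Dividing by the length of all annotated exons allowed the 4 glycosylase genes to be compared within a library. Coverage along transcripts after cDNA amplification was not checked. Per kb of exon, normalised reads in ddcc averaged 7.06 ± 0.449 for DME, 5.04 ± 0.994 for DML2, 1.74 ± 0.681 for ROS1 and 0 for DML3. In WT they averaged 34.8 ± 1.68 for ROS1, 3.23 ± 1.05 for DML2, 2.25 ± 0.181 for DME and 0.220 ± 0.287 for DML3. The order was thus led by DME in ddcc and by ROS1 in WT. DML2 and DME in WT were neighbours that differed by less than the spread of DML2. IBM1, on the same per kb scale, stood at 6.02 ± 0.764 in ddcc, between DME and DML2 and overlapping DML2 in its libraries, against 14.6 ± 1.72 in WT, second to ROS1. All annotated exons of IBM1 come to 4664 bases, more than any of its transcripts (3585, 3398 and 3266 bases). Its place beside DME and DML2 in ddcc therefore depends on the length used.

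ROS1 made up 9.68% and 15.1% of the summed per kb level of the 4 genes in the ddcc libraries, against 84.7% and 87.3% in the WT libraries. DME made up 56.9% and 45.9% in ddcc, against 4.98% and 6.16% in WT. DML2 made up 33.4% and 39.1% in ddcc, against 9.34% and 6.46% in WT. The glycosylase transcripts were therefore mostly DME and DML2 in ddcc seeds and mostly ROS1 in WT seeds. Per kb, DME exceeded ROS1 by 5.87-fold and 3.04-fold in the ddcc libraries, whereas ROS1 exceeded DME by 17-fold and 14.2-fold in the WT libraries.

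Summed over the family, transcript levels were lower in ddcc. The fall lay in ROS1, with mean normalised reads of 8.39 in ddcc against 168 in WT. DME (50.8 against 16.2) and DML2 (22.1 against 14.2, not called) had higher means in ddcc, and DML3 was close to undetected. The 4 glycosylase genes summed to 12.97 and 14.7 normalised reads per kb in the ddcc libraries, against 42.5 and 38.5 in the WT libraries. Without division by length the sums were 81.3 ± 4.43 in ddcc and 199 ± 12.6 in WT (SD, n = 2 each), a ratio of WT over ddcc of 2.45. All ddcc values lay below all WT values for the sum and for the ROS1 share. A two-sided exact permutation test gave p = 0.333 for each, which is the smallest p that 2 libraries against 2 allow.

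**Figure D2:**
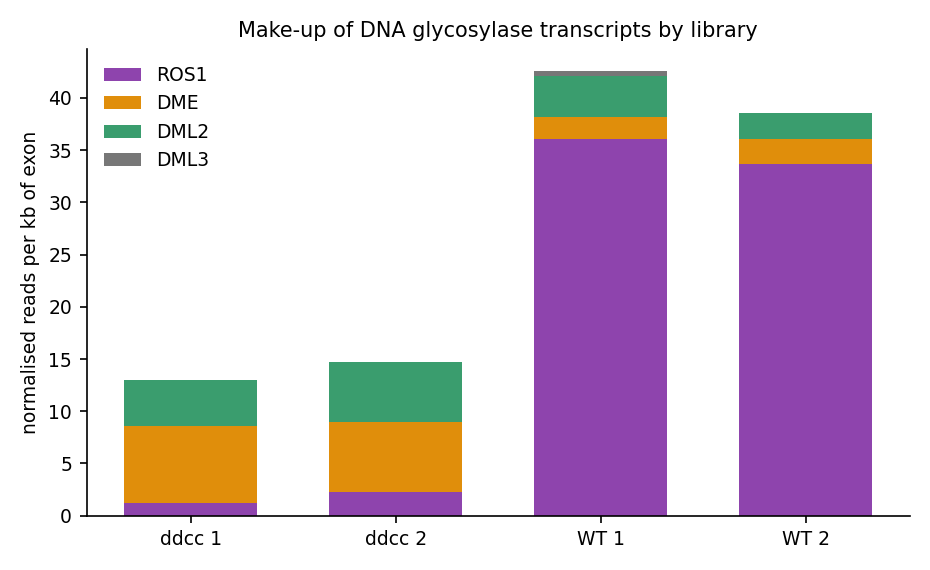
Normalised reads per kb of exon (vertical axis) of the 4 DNA glycosylase genes stacked for each library, ddcc replicates 1 and 2 left and WT replicates 1 and 2 right. The WT bars, 42.5 and 38.5 high, are mostly ROS1, and the ddcc bars, 12.97 and 14.7 high, are mostly DME and DML2.

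IBM1, the histone demethylase, spans 2425884 to 2433113 on the plus strand of chromosome 3. Its normalised read count was 30.6 and 25.5 in the ddcc libraries, against 73.7 and 62.3 in the WT libraries. Both ddcc libraries were below both WT libraries. IBM1 averaged 28.1 ± 3.56 in ddcc and 68.0 ± 8.03 in WT (SD, n = 2 each), with a ratio of WT over ddcc of 2.42. The log2 fold change was -1.23 (SE 0.29, 95% interval -1.84 to -0.62, limma adjusted p = 0.0198), rank 224 among the 545 genes called lower. The 47 reads in ddcc against 185 in WT gave a depth-corrected ratio of WT over ddcc of 2.50, with a counting interval of 1.80 to 3.51. The call was the least firm of the 3. It missed the threshold with no filter on low values (limma adjusted p = 0.0612) and in limma without a variance trend (0.145). It also did so after scaling libraries to equal totals of nuclear genes (log2 fold change -0.85, limma adjusted p = 0.0761). Leaving out ddcc replicate 1, ddcc replicate 2, WT replicate 1 or WT replicate 2 gave log2 fold changes of -1.35, -1.11, -1.12 and -1.35. The call was lost in each of these fits too, which leave 1 library in a genotype.

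The annotation gives IBM1 3 transcripts. The transcript of 16 exons has an intron of 1974 bases at 2429125 to 2431098, by far its longest, and a transcript of 7 exons ends inside this intron, at 2430203. The third, of 17 exons, puts an extra exon there and keeps an intron of 1474 bases. The deposited tables hold 1 value per gene, so the forms of IBM1 could not be told apart, nor could those of DME. The longest intron of ROS1, by comparison, has 242 bases, and that of any annotated form of DME 383 bases.

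**Figure D3:**
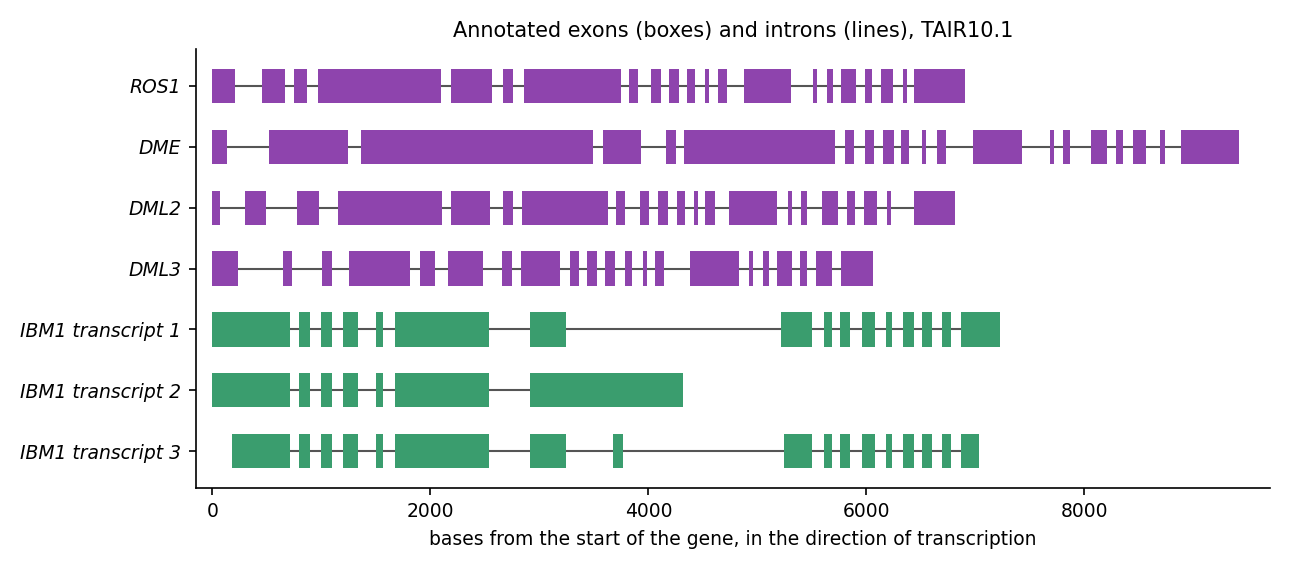
Annotated exons (boxes) and introns (lines) of the 4 DNA glycosylase genes (purple, the transcript with most exons of each) and of the 3 annotated IBM1 transcripts (green), drawn to scale in bases from the start of the gene in the direction of transcription. IBM1 transcript 2 ends inside the 1974-base intron of transcript 1, and no glycosylase gene has an intron of that size.

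In 15780 tested genes the median log2 fold change was 0.02, and the members were not the most abundant genes: 81.9% of tested genes had a lower mean over the 4 libraries than ROS1, 69.2% than IBM1, 60.1% than DME and 43.8% than DML2. Values are not divided by length here. None of the 5 genes overlaps another annotated locus or has a copy of at least 95% identity over 100 bases.

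**Figure D4:**
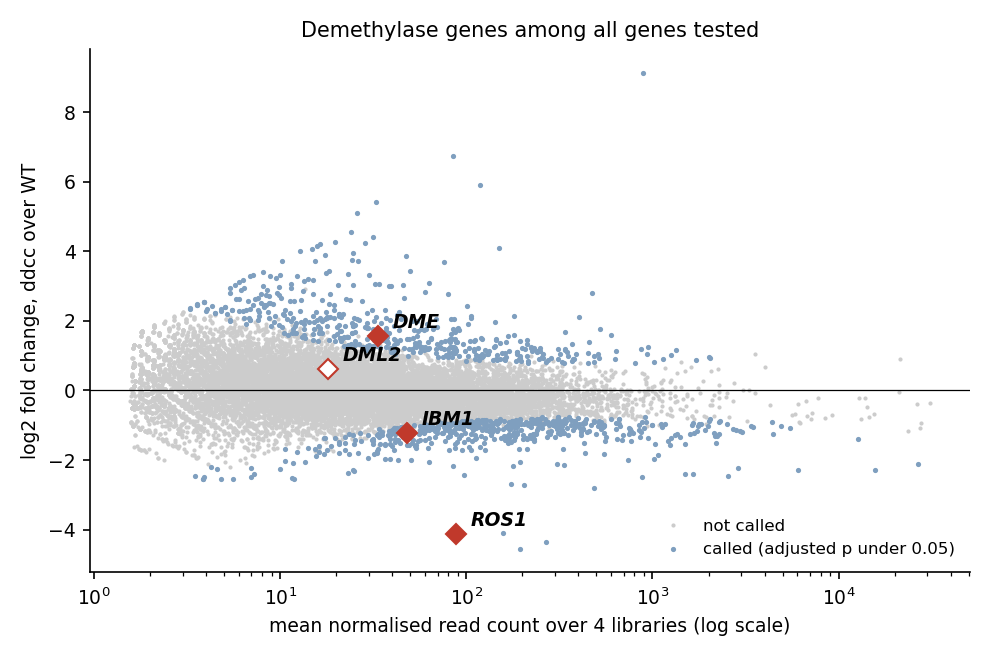
Log2 fold change of ddcc over WT (vertical axis) against the mean normalised read count over the 4 libraries (horizontal axis, log scale) for the 15780 genes tested, with called genes in blue, the called members as filled red diamonds and DML2 as an open one. ROS1, at -4.13, lies at the lower edge of all genes, while DME at 1.56 and IBM1 at -1.23 lie among many called genes.

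The pattern most like that of each called gene was sought over the 4 libraries among 6600 genes with a mean of at least 20 units, by the root mean square difference of centred log2 values. For ROS1 the nearest were the small heat shock protein genes HSP23.6-MITO (0.57), ATHSP22.0 (0.70) and HSP17.6II (0.71), so no gene was close. HSP17.6II, for example, had 14.1 and 11.0 in ddcc, against 192 and 556 in WT. HSP23.6-MITO is uncertain, with a copy 96.8% identical over 124 bases. For DME they were RBP47A, an RNA-binding protein gene (0.05), the ribosomal protein gene AT4G17390 (0.09) and the uncharacterized AT4G07825 (0.10), of which AT4G17390 overlaps other loci and AT4G07825 has a copy of 96.4% identity over 140 bases. RBP47A had 132 and 127 in ddcc, against 44.0 and 46.1 in WT. For IBM1 they were AT5G13810, annotated as glutaredoxin family (0.01), the RING finger gene RHB1A (0.03) and AT1G05510 (0.04), which overlaps another locus. Over only 4 libraries of ddcc and WT, such a distance depends mostly on the size of the fold change. Small distances are thus easily met among 6600 genes, and shared regulation was not tested.

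The enzymes that complete base excision, with the partners that bring ROS1 to its targets, showed no called gene. Over all genes tested 6.48% were called. In lists as short as this and those below, 0 calls is near that share and does not show that the genes were unchanged. Of 14 genes, 13 were tested in limma, 0 were called and 1 had an unadjusted p under 0.05; voom gave the same 2 counts. The median log2 fold change was -0.11, beside 0.02 over all genes tested. HMG (SSRP1), a histone chaperone subunit that aids demethylation by DME, had the lowest p, with 158 and 131 in ddcc against 190 and 253 in WT (log2 fold change -0.60, limma adjusted p = 0.157); it overlaps another locus. LIG1, the DNA ligase of the last step, had 35.6 and 43.4 in ddcc against 25.0 and 23.8 in WT (log2 fold change 0.65, limma adjusted p = 0.247). ROS4 (IDM1), a histone acetyltransferase of the ROS1 pathway, had 29.3 and 20.8 in ddcc against 15.4 and 14.6 in WT (limma adjusted p = 0.322), and ROS3, an RNA-binding protein of that pathway, 124 and 104 in ddcc against 145 and 156 in WT (limma adjusted p = 0.348). Of 8 other DNA glycosylase genes for damaged bases, 6 were tested, 0 were called and 0 had an unadjusted p under 0.05 in limma or voom, with a median log2 fold change of 0.22. The highest of them, AT3G07930, had 34.1 and 27.98 in ddcc against 34.5 and 34.3 in WT, and MMH-1, a formamidopyrimidine-DNA glycosylase gene, had 36.4 and 26.9 in ddcc against 24.6 and 21.3 in WT (limma adjusted p = 0.510).

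Among the 5 JmjC relatives of IBM1 in the KDM3 group, all tested, 1 was called, in the direction opposite to IBM1, beside 6.48% of all genes tested. At an unadjusted p under 0.05 there were 2 in limma and 1 in voom. AT4G00990 had 41.0 and 25.8 in ddcc, against 8.08 and 12.9 in WT (log2 fold change 1.53, SE 0.40, limma adjusted p = 0.0331). It overlaps another locus and is uncertain. Its call was lost without any 1 of the 4 libraries (log2 fold change 1.205 to 1.84), as were most calls over all genes. AT1G62310, the most abundant of them, had 85.3 and 118 in ddcc against 178 and 105 in WT, a pair of groups that overlap, and its locus overlaps another. B160, the other at an unadjusted p under 0.05 in limma, had 7.17 and 9.59 in ddcc against 3.91 and 1.51 in WT. It rested on 14 reads against 8 and was not called (log2 fold change 1.27, limma adjusted p = 0.203). The median of the 5 was 0.33. Of 18 other histone demethylase genes, all tested, 0 were called and 0 had an unadjusted p under 0.05 in limma or voom, and their median was -0.03. JMJ18, which acts on lysine 4 of histone H3, had 110 and 121 in ddcc against 93.6 and 88.5 in WT, and REF6, which acts on lysine 27, had 49.6 and 50.8 in ddcc against 36.2 and 33.1 in WT (limma adjusted p 0.454 and 0.321).

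None of the factors known to process the IBM1 transcript was called. EDM2 had 163 and 180 in ddcc against 157 and 152 in WT (log2 fold change 0.15, SE 0.22, limma adjusted p = 0.758). AT5G11470 (IBM2, also ASI1), which binds the intron, had 8.51 and 16.6 in ddcc against 16.8 and 12.2 in WT (limma adjusted p = 0.818). Of these 3 genes 0 were called, beside 6.48% of all genes tested, and 0 had an unadjusted p under 0.05 in limma or voom. Of 7 H3K9 methyltransferase and reader genes, whose mark IBM1 removes or whose products read DNA methylation, 5 were tested, 0 were called and 1 had an unadjusted p under 0.05 in limma and in voom (median log2 fold change 0.10). SUVH1 had 43.5 and 36.5 in ddcc against 64.8 and 63.4 in WT (limma adjusted p = 0.174), and SUVH9 36.6 and 37.5 in ddcc against 57.5 and 54.2 in WT (limma adjusted p = 0.254). SUVH4, the main H3K9 methyltransferase, had 1 read in each genotype.

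On the side that places DNA methylation, 5 of 14 DNA methyltransferase and cofactor genes were tested. Of these 5, 1 was called, beside 6.48% of all genes tested. The called gene was DRM2, itself among the genes that name the mutant, so its call does not describe the rest of the list. MET1, which maintains CG methylation, had 9.499 and 10.9 in ddcc against 1.45 and 2.57 in WT, from 17 reads against 5, and missed the threshold (log2 fold change 1.73, limma adjusted p = 0.0703). DRM3, a non-catalytic relative of DRM2, had 46.8 and 27.1 in ddcc against 26.5 and 18.9 in WT (limma adjusted p = 0.330). Of 20 genes of RNA-directed DNA methylation, the pathway that guides DRM2 through small RNAs, 16 were tested. Of these 16, 1 was called, higher, beside 6.48% of all genes tested called in either direction, so the count of calls was near that share. Their median log2 fold change was 0.58, with 14 of 16 above 0, beside 8066 of all 15780 tested, and 6 of 16 had an unadjusted p under 0.05 in limma, beside 3348 of 15780. Their summed level was 406 to 426 in ddcc against 225 to 266 in WT. Much of that difference came from IDN2, with means of 117 in ddcc and 44.0 in WT, and from KTF1, with 102 in ddcc and 70.1 in WT. The called gene, IDN2, an RNA-binding protein gene, had 109.9 and 124 in ddcc against 59.3 and 28.7 in WT (log2 fold change 1.47, limma adjusted p = 0.0133). IDN2 has a copy of 96.7% identity over 240 bases and is uncertain. Its call was lost without ddcc replicate 1, ddcc replicate 2 or WT replicate 2 (log2 fold change 1.55, 1.38 and 0.96). KTF1, a transcription elongation factor of the pathway, had 103 and 100.4 in ddcc against 68.9 and 71.2 in WT (log2 fold change 0.53, limma adjusted p = 0.227), and AGO4, its main Argonaute, 23.9 and 39.5 in ddcc against 12.1 and 13.2 in WT (limma adjusted p = 0.0772).

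Of 14 loci known to respond to DME, ROS1 or IBM1, 7 were tested and 1 was called, beside 6.48% of all genes tested. ER (ERECTA), a receptor kinase gene of stem and stomatal growth, had 31.9 and 32.65 in ddcc, against 4.81 and 4.04 in WT. It rose in ddcc, with 54 reads there and 12 in WT, and a response to DME, ROS1 or IBM1 was not tested. Its log2 fold change of 2.50 (SE 0.41) had a limma adjusted p = 0.00322. The call was lost without ddcc replicate 1 or ddcc replicate 2 (log2 fold change 2.50 and 2.47) and kept without WT replicate 2 (2.42). EPF2, a stomatal peptide gene known to depend on ROS1, had no read in any library. BNS, the locus after which IBM1 is named, had 8.32 and 9.64 in ddcc against 8.045 and 6.72 in WT (log2 fold change 0.24, limma adjusted p = 0.820). The imprinted DME targets FWA and MEA had at most 5 reads in either genotype, and PHE1 had none. FIS2, another imprinted target, had 4.65 and 2.52 in ddcc against 10.4 and 13.05 in WT, from 6 reads against 30, and did not pass the test (log2 fold change -1.39, limma adjusted p = 0.125); it overlaps another locus. AT4G18650, the most abundant of the list, had 376 and 369 in ddcc against 320 and 201 in WT (limma adjusted p = 0.208). The median of the 7 was 0.28. Of the other genes named from the lists, MMH-1, JMJ18, EDM2 and DRM3 also overlap another locus, and their values are uncertain to that extent.

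**Figure D5:**
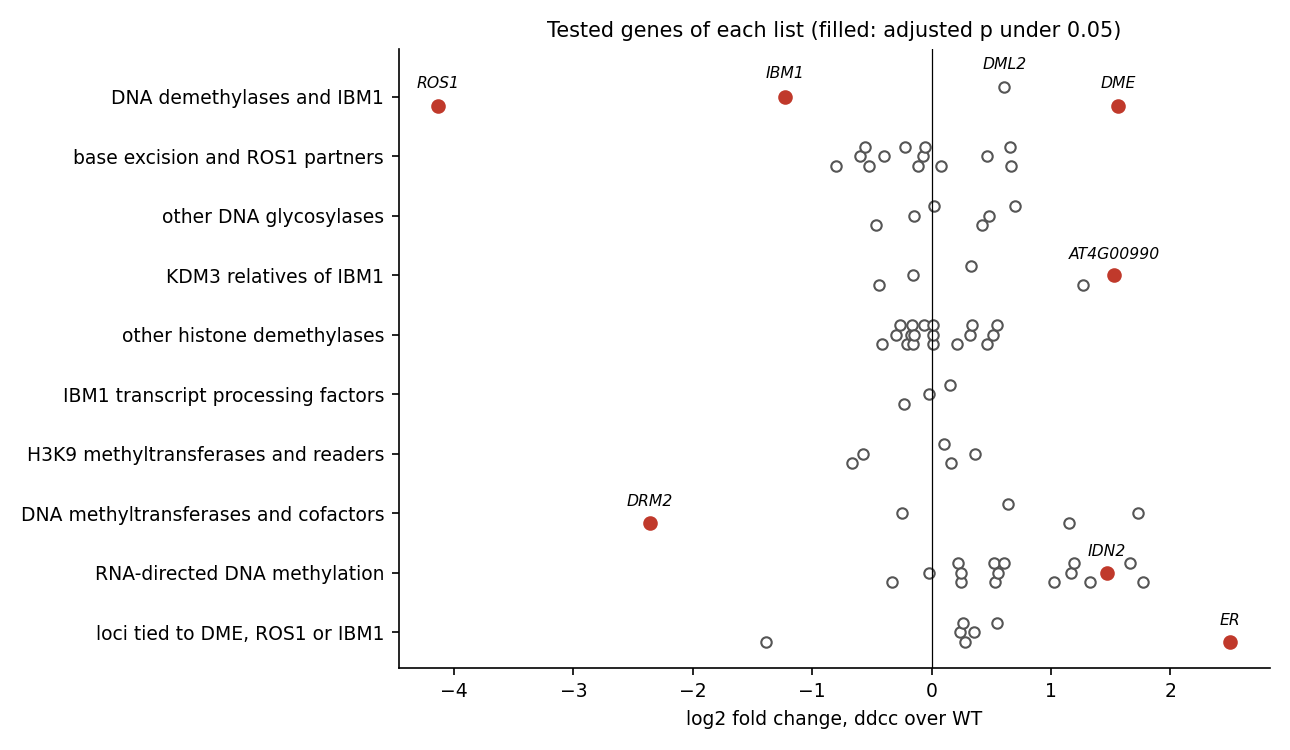
Log2 fold change of ddcc over WT (horizontal axis) of the tested genes in each list (rows), with genes at an adjusted p under 0.05 filled. The demethylase row holds both the lowest value, ROS1 at -4.13, and DME at 1.56. The KDM3, DNA methyltransferase, RNA-directed DNA methylation and target rows hold 1 filled gene each. In the base excision, other glycosylase, other histone demethylase, IBM1 processing and H3K9 rows no gene is filled. Over all genes tested 6.48% were called.

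Markers of the parts of the seed were read beside these genes. The 9 seed embryo markers, all tested, summed to 75623 to 82750 in ddcc against 105558 to 120311 in WT, with 2 called lower: GEA6, a late embryogenesis abundant protein gene (log2 fold change -1.40, limma adjusted p = 0.0152), and the oleosin gene OLEO2 (-1.04, limma adjusted p = 0.0313), which overlaps another locus. SESA2, a seed storage albumin gene of the same list, had higher values in ddcc, 3947 and 5445 against 3181 and 1606 in WT, and did not pass the test (log2 fold change 1.04, limma adjusted p = 0.068). The calls of GEA6 and OLEO2 were lost without ddcc replicate 1 (log2 fold change -1.42 and -0.88) or ddcc replicate 2 (-1.38 and -1.205). That of OLEO2 was also lost without WT replicate 1 (-0.798). Without WT replicate 2 both were kept (-1.19 for GEA6 and -1.29 for OLEO2). Quantile normalisation ended both (GEA6 at -0.71, limma adjusted p = 0.104, and OLEO2 at -0.45, 0.245), and equal nuclear totals ended that of OLEO2 (-0.65, 0.0866). The most abundant, the cruciferin gene CRU3, had 22048 and 23525 in ddcc against 31621 and 28490 in WT (limma adjusted p = 0.570). The 7 endosperm markers, of which 6 were tested and none called in limma, had a median log2 fold change of 0.11, with 3 of 6 above 0 and 2 at an unadjusted p under 0.05, EPR1 with higher and FIS2 with lower values in ddcc. Their levels summed to 23765 to 32279 in ddcc against 14045 to 15826 in WT, nearly all of it from EPR1. EPR1 had 23673 and 32212 in ddcc against 13960 and 15731 in WT (limma adjusted p = 0.150), and of the defining endosperm markers PHE1 was at 0 reads. MEA, FIS2, FWA and PHE1 belong to both this list and that of DME targets. The 7 seed coat markers summed to 10.9 to 20.3 in ddcc against 7.11 to 15.4 in WT, with BAN and LDOX at 0 reads, and the 8 silique wall and leaf markers to 9.88 to 16.3 in ddcc against 8.29 to 16.8 in WT, with SHP2, AGL8, IND and CAB3 at 0 reads. Reads on chloroplast genes made up 3.46% and 3.63% in ddcc against 1.76% and 1.55% in WT. The part of these differences in the values of ROS1, DME and IBM1 was not tested, beyond the scaling to equal nuclear totals, under which ROS1 was at -3.77, DME at 1.93 and IBM1 at -0.85 on the log2 scale.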

How the data were processed

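RNA of whole seeds was sequenced from 2 libraries of each genotype. Per the labels, about 25 ng of DNase-treated RNA was amplified to cDNA before the Illumina libraries were made, and the submitters' processing notes name TAIR10, edgeR 3.10.5 and Bowtie 0.12.7. How reads were mapped and counted, and whether by strand, is not given in the sources used here. The authors deposited a signal, normalised read counts that are not whole and not divided by length. Inverting an equalisation of library sizes within each genotype gave whole reads within 0.01 for 100% of value pairs, at a dispersion of 0.0327. These inferred reads served for depths, counting intervals (exact binomial, 95%, counting error only), floors of 3 reads and voom.

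Log2(value + 1 unit), where a unit of 1.56 is the mean column total divided by 1e6, was fitted for genes averaging 1 unit or more with limma 3.58.1 in R 4.3.3 (variance trend, Benjamini-Hochberg over all genes tested), and called at an adjusted p under 0.05. This scale understates changes of low genes. The script was tested on simulated data. Python 3.11.15 with scipy 1.17.1 and BLAST+ 2.17.0 gave permutation tests and near-identical copies. Symbols and positions came from TAIR10.1, whose gene table held 26719 of 27416 loci.

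Replicate numbers did not pair the libraries (correlation of same-numbered deviations from group means -0.0455 over 15780 genes). Both WT tables are headed as replicate 2, per the file headers, but their values differ. The members and lists were chosen with earlier results of these data known. Named were the 5 members, the 4 mutant genes, in each list the most abundant tested gene and the one of smallest p among the rest, and 3 genes of like pattern per called member. Further genes were chosen after their values were seen. Alternatives varied the pseudocount, filter, scaling and limma options, added a replicate block and left out each library.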

Additional observations from a re-analysis of the deposited data

How the results depend on the processing

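ROS1, DME, DML2 and IBM1 kept their direction under all 15 alternatives each. The log2 fold change of ROS1 lay between -4.47 and -3.45, with the call lost in 1 of 15, that of DME between 1.29 and 1.93, lost in 5, that of DML2 between 0.31 and 0.97, never called, and that of IBM1 between -1.35 and -0.85, lost in 7. In limma without a variance trend DME stayed at 1.56 (adjusted p = 0.0957) and IBM1 at -1.23 (0.145) and neither was called. IBM1 was also not called without a filter on low values (-1.23, 0.0612) or with equal nuclear totals (-0.85, 0.0761). Leaving out single libraries gave -4.47 to -3.78 for ROS1, 1.49 to 1.64 for DME, -1.35 to -1.11 for IBM1 and -1.09 to -0.067 for the untested DML3. The glycosylase sum kept a ddcc minus WT difference of -127 to -109 normalised reads and the ROS1 share one of -76.3 to -70.9 percentage points when single libraries were left out.

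The 1023 calls over all genes became 336 without a filter, 1642 with equal nuclear totals and 33 without a trend, and 1 to 455 when single libraries were left out. Of the calls 46.7% were higher in ddcc, but 58.1% after quantile normalisation, 87.4% with equal nuclear totals, which moved the median of all genes to 0.38, 56.8% without a filter, 97.0% without a trend and 60.7% without WT replicate 1. Equal nuclear totals gave 1 call among base excision genes, 2 among DNA methyltransferases, 6 in RNA-directed DNA methylation and 2 among demethylase targets. Without a trend there were 0 calls in these last 3 lists and 0 among the KDM3 relatives, and without a filter 0 among the KDM3 relatives and in RNA-directed DNA methylation. Robust moderation gave 2 in RNA-directed DNA methylation, and quantile normalisation 2 among the targets. Single libraries left out gave 0 calls in all 4 cases for the KDM3 relatives and the DNA methyltransferases, and 0 to 1 for RNA-directed DNA methylation and the targets. The cause was not tested. voom, chosen after the data were seen, called the same 3 members.

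With replicate number as a block, 1381 genes were called, with 2 in the DNA methyltransferase list and 3 in RNA-directed DNA methylation. ROS1, DME and IBM1 were again called and DML2 was not, but the numbers do not pair the libraries. The block also leaves fewer residual degrees of freedom than the main fit, so its p values lean more on variance pooled over genes. They are not stronger evidence than those of the main fit. At this depth DML3 and most of the imprinted targets lay below the level tested or rested on few reads.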
